A study of Homo sapiens with 6 samples.

Results

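The transcripts of G2/M and the mitotic spindle were examined in HCT116 stem cells (HCT116SCs) after transfection with siRNA against prostate stem cell antigen (siPSCA) or with negative control (NC) siRNA. The members were 51 genes named from their roles in mitosis, taken by gene name from a table of 58735 genes, and all 51 were found. They were chosen with earlier results of these data known. HCT116 is a human colorectal cancer line, and HCT116SCs are its CD44+CD326+ fraction, isolated with magnetic beads and grown as spheres in serum-free medium with EGF and bFGF. RNA was collected 48 h after transfection from 3 NC and 3 siPSCA libraries of cells labelled wild type, and the groups were set apart in the labels by the siRNA, except that the titles of siPSCA 2 and siPSCA 3 give the line's name with another number than all their other labels. The labels name neither which of the 3 described PSCA siRNA sequences entered which library nor whether the libraries came from separate cultures, so p-values measure the spread between these samples, which may be technical. Whether these transcripts were higher or lower after siPSCA was the question of the comparison.

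A dividing cell enters mitosis when cyclin B activates CDK1, a step that CDC25 phosphatases promote and the kinases WEE1 and PKMYT1 hold back. Polo and Aurora kinases then build the spindle, kinetochores tie chromosomes to its microtubules, and the spindle checkpoint holds back the anaphase-promoting complex (APC/C) until all chromosomes are attached. Most of the genes are transcribed late in the cell cycle under the MuvB complex with MYBL2 and FOXM1, which act through a short promoter element named CHR, while the DREAM complex silences the same promoters in resting cells. In bulk RNA, fewer cells in mitosis and less RNA per mitotic cell cannot be told apart.

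The libraries held 16145977 to 16884838 reads on genes in NC and 16099716 to 17302219 in siPSCA. Sequencing was paired-end, so the counted unit, called a read here, may be a pair of reads. NC 3 stood apart from the other controls, with a root mean square log2 difference over all tested genes of 0.41 to NC 1 and 0.39 to NC 2, against 0.268 between NC 1 and NC 2 and 0.254 to 0.268 among siPSCA libraries. PSCA itself, the siRNA target, had 4, 12 and 15 reads in NC and 9, 9 and 7 in siPSCA, and its mean of 0.34 ± 0.185 FPKM (SD, n = 3) in NC and 0.269 ± 0.0448 in siPSCA did not differ in an exact permutation test (two-sided p = 0.5, where 0.1 is the smallest p that 3 against 3 libraries allow). The labels were therefore not checked by the target at this depth. The sort markers EPCAM (93.3 to 122.9 FPKM) and CD44 (59.6 to 87.5 FPKM) were present, CD44 being lower in siPSCA (log2 fold change -0.44, adjusted p = 0.00193 by limma). Of the 9 epithelial and sort markers 4 (44.4%) were higher (KRT8, KRT19, CLDN4 and CLDN7) and 2 (22.2%) lower (CD44 and CDH1). Over all tested genes 26.6% were higher and 24.2% lower. The markers had a median of 0.22. Once a trend on GC content and gene length had been removed, no marker was higher and 3 (33.3%) were lower, beside 23.7% and 16.6% of all genes. The difference from these shares was not tested. Of 11 markers of other cell types, COL1A1 alone passed the minimum (3.35 to 6.51 FPKM), while COL1A2 lay at 0.00533 FPKM or less and CD3E was at 0 in every library. The summed level of the 11 markers was 4.5 to 6.9 FPKM in NC and 7.26 to 7.72 FPKM in siPSCA, and its part in the results was not tested. COL1A1 itself was not called, at a log2 fold change of 0.35 and of -0.02 with the trend removed.

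The mitotic genes moved in both directions. Values are FPKM (counts scaled by gene length and library total) as the authors deposited them. Tests were made with limma on log2(FPKM + 1), so fold changes of low genes are understated, and a gene was called at an adjusted p under 0.05 over all 13796 genes with a mean of at least 1 FPKM. Of the 51 members, 50 passed this minimum, 13 were higher in siPSCA, 16 were lower and 21 were not called. Over all tested genes 26.6% were higher and 24.2% were lower, 50.7% in either direction. Of the members 26% were called higher and 32% lower, and the difference from these shares was not tested. The members had a median log2 fold change of -0.08, and all tested genes 0.01. Libraries of the groups did not overlap for 33 members, or 66%, against 64.5% of all tested genes. The summed FPKM of the 51 genes was 1028, 1060 and 1099 in NC and 1067, 1075 and 1097 in siPSCA, and these sums overlapped.

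The second rule, an unadjusted p under 0.05 with a log2 fold change over 0.5 in size, called 7 members higher and 6 lower, and it called 24.9% of all tested genes. The members ranged from -1.12 for CENPE to 0.87 for AURKB on the log2 scale. Behind the 50 tested members stood 173 to 11151 reads per library, and the lowest count belonged to CENPA in NC 3.

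**Figure D1:**
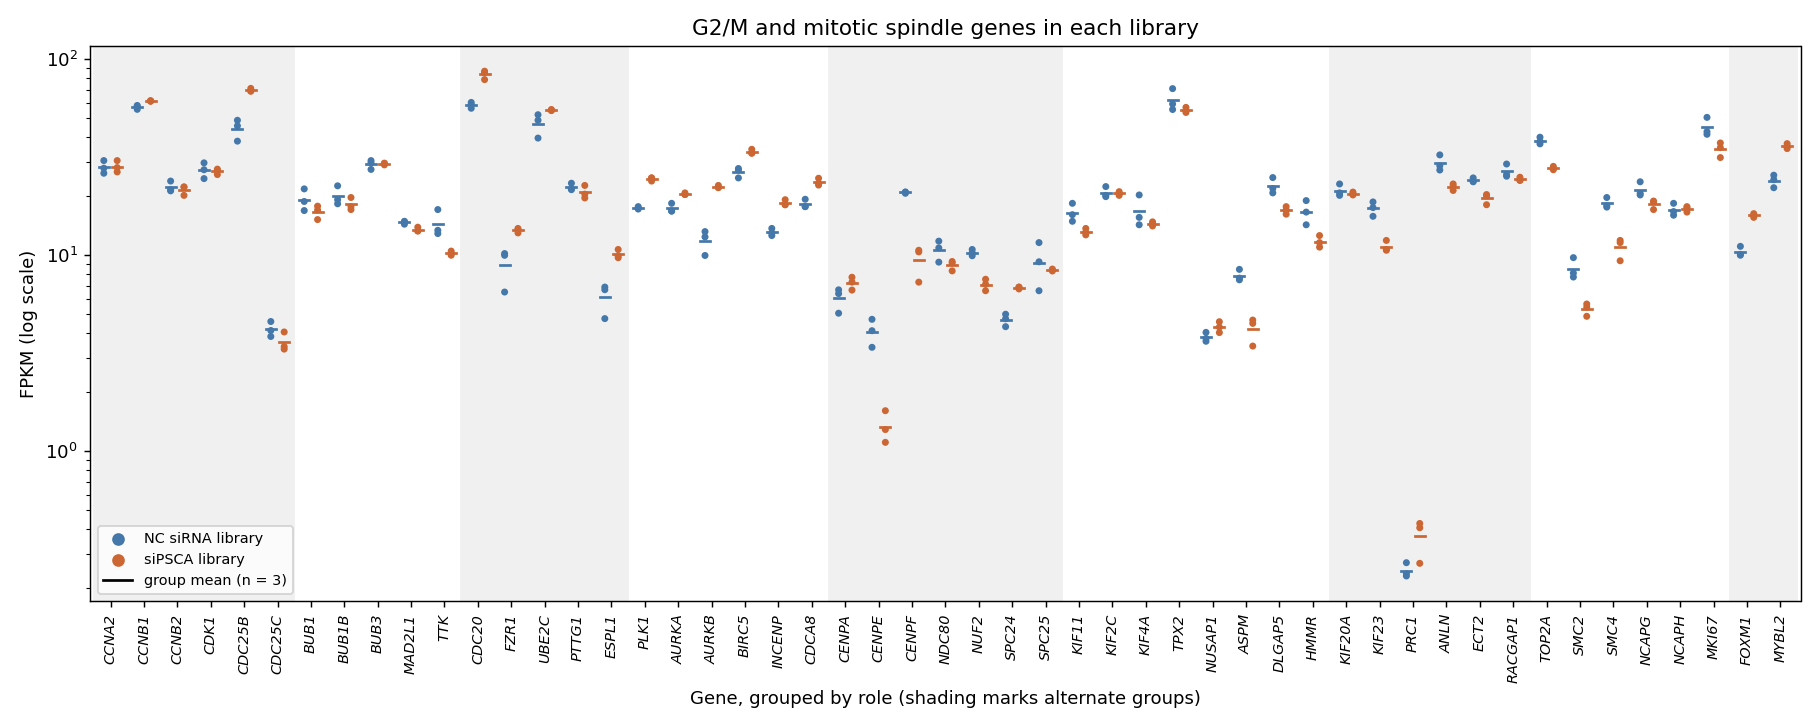
FPKM on a log axis of the 51 genes in each library, grouped by role, with 3 NC points and 3 siPSCA points per gene and a line at each group mean. The points of AURKB, FOXM1 and CDC25B lie higher in siPSCA, those of CENPE, CENPF and ASPM lie lower, and PRC1 lies under 1 FPKM in all 6 libraries.

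A promoter element shared by many of the genes is shown first, since it is the route by which they are known to be switched on together. The CHR was searched as TTTGAA and the CCAAT box, bound by NF-Y, as CCAAT, each on both strands and counted also where they share bases, in RefSeq promoters of GRCh38.p14 that run from 250 bases before to 50 bases after a start. Entries were found for 43 of the 51 genes, and BUB3, TTK, UBE2C, AURKA, BIRC5, TPX2, RACGAP1 and FOXM1 had none in the table. The CHR letters were in a promoter of 31 of the 43 genes, or 72.1%, against 18.2% of all genes with a promoter entry. CCAAT was in 74.4% of the 43 genes against 39.7% of all, and both were in 53.5% against 7.26%. By promoter, 60.7% of the 56 member entries held the CHR against 15.2% of 35116. A CHR was located only where the whole window around it, of the kind given below, lay before the start. Such a CHR was found 31 times in 23 genes, its first base at a median of 35 bases before the start. The nearest, in CENPA, began 18 bases before the start. Any CHR closer to the start was left out, so the count and the median do not cover it.

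Windows of 30 bases around this element are given for genes that were higher (PLK1, CDC20, ESPL1, CDCA8), lower (SMC4, KIF23, MKI67, ANLN) or not called (CDK1, CCNB2), to show that the same letters stand before genes of each kind. They are written 5′ to 3′ along the gene's strand, with the CHR or its reverse complement in capitals.
PLK1 (chr16:23678848-23678877, plus strand): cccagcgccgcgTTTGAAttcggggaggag
CDC20 (chr1:43358904-43358933, plus strand): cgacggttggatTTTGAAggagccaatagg
ESPL1 (chr12:53268256-53268285, plus strand): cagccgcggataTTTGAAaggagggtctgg
CDCA8 (chr1:37692481-37692510, plus strand): gtgactgtggagTTTGAAttgggtggcggt
SMC4 (chr3:160399563-160399592, plus strand): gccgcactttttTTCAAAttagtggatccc
KIF23 (chr15:69414282-69414311, plus strand): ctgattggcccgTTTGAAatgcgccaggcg
MKI67 (chr10:128126435-128126464, minus strand): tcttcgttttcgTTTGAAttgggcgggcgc
ANLN (chr7:36389830-36389859, plus strand): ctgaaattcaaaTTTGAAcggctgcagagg
CDK1 (chr10:60778397-60778426, plus strand): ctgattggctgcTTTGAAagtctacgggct
CCNB2 (chr15:59105105-59105134, plus strand): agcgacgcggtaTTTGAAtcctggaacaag
The first base of the CHR lay 29 bases before the start in PLK1, 65 in CDC20, 31 in ESPL1, 23 in CDCA8, 75 in SMC4, 55 in KIF23, 29 in MKI67, 20 in ANLN, 69 in CDK1 and 29 in CCNB2. Of the genes with a promoter entry, the letters were present in 6 of 10 called higher, 14 of 15 called lower and 10 of 17 not called. A match describes the letters in the window and does not show that a factor was bound there.

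PLK1, both Aurora kinases and the passenger subunits rose, whereas CDK1 and the checkpoint kinases TTK and BUB1, given with their own groups, did not. All 6 members of the group of mitotic kinases and the chromosomal passenger complex were called higher, beside 26.6% of all tested genes. Their median log2 fold change was 0.41, and their summed level was 100.8 to 106.7 FPKM in NC and 142.4 to 144.1 FPKM in siPSCA. AURKB, the kinase of the chromosomal passenger complex that corrects faulty kinetochore attachments (chr17:8204733-8210600), was at 13.2, 12.4 and 9.97 FPKM in NC and at 22.2, 22.7 and 22.1 FPKM in siPSCA. Every siPSCA library lay above every NC library, and the change was 0.87 ± 0.10 on the log2 scale (SE, n = 3 per group, adjusted p = 0.00164 by limma). PLK1, the polo kinase of mitotic entry and centrosome maturation, had 17.2, 17.7 and 17.4 FPKM in NC and 24.8, 24.8 and 23.9 FPKM in siPSCA. Its groups were apart and its libraries within each group close, giving 0.47 ± 0.04 (adjusted p = 0.000999). INCENP, the scaffold that holds AURKB at the centromere, rose from 13.0, 13.7 and 12.6 to 18.1, 19.2 and 18.1 FPKM, again with no overlap (0.47 ± 0.05, adjusted p = 0.00167). The passenger subunits BIRC5 (survivin) and CDCA8 (borealin) rose by 0.33 and 0.36. AURKA, which acts at centrosomes and spindle poles, was at 16.8, 16.8 and 18.4 FPKM in NC and at 20.4, 20.8 and 20.4 FPKM in siPSCA. The groups did not overlap, but the change was small (0.23 ± 0.05, adjusted p = 0.0138), and the call was lost without siPSCA 2.

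Both transcription factors of the late cell cycle rose, beside 26.6% of all tested genes. FOXM1, a forkhead factor that drives G2/M genes, was at 10.0, 10.1 and 11.1 FPKM in NC and at 16.0, 15.6 and 16.3 FPKM in siPSCA (0.57 ± 0.06, adjusted p = 0.00122). MYBL2, the B-Myb partner of the MuvB complex, was at 24.3, 25.6 and 22.1 FPKM in NC and at 37.1, 36.1 and 35.0 FPKM in siPSCA (0.57 ± 0.07, adjusted p = 0.00161). Neither gene's libraries overlapped between groups. In the annotation FOXM1 shares 15.94% of its exonic bases with ITFG2 on the opposite strand.

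Among the genes of APC/C and separase, 3 of 5 (60%) rose and none fell, beside 26.6% and 24.2% of all tested genes. CDC20, the APC/C activator that the spindle checkpoint blocks, stood at 58.8, 60.2 and 56.2 FPKM in NC and at 86.9, 85.2 and 78.7 FPKM in siPSCA. Its lowest siPSCA library lay above its highest NC library (0.51 ± 0.06, adjusted p = 0.00149). ESPL1, the separase protease that cuts cohesin at anaphase, was at 6.88, 6.67 and 4.75 FPKM in NC and at 10.7, 9.93 and 9.71 FPKM in siPSCA (0.66 ± 0.13, adjusted p = 0.00769). FZR1, the APC/C activator of late mitosis and G1, was at 9.99, 10.2 and 6.49 FPKM in NC and at 13.5, 13.7 and 13.0 FPKM in siPSCA. For ESPL1 and FZR1 the groups were apart and NC 3 was the lowest library. The change of FZR1 was 0.56 ± 0.16 (adjusted p = 0.0266), and its call was lost without any single siPSCA library. The APC/C ubiquitin-conjugating enzyme UBE2C (0.24, adjusted p = 0.0937) and securin, PTTG1 (-0.09, adjusted p = 0.329), were not called.

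The engine of mitotic entry was called in 1 of 6 members (16.7%), beside 50.7% of all tested genes. CDC25B, the phosphatase that starts activation of CDK1, rose from 48.8, 45.7 and 38.2 FPKM in NC to 69.1, 68.6 and 71.0 FPKM in siPSCA. The groups were apart (0.65 ± 0.09, adjusted p = 0.00285). CDC25C, a related phosphatase, was at 3.85, 4.13 and 4.59 FPKM in NC and at 3.42, 4.06 and 3.32 FPKM in siPSCA, and the groups overlapped (-0.18 ± 0.09, adjusted p = 0.149). CCNB1, cyclin B1, was at 55.5, 57.5 and 58.1 FPKM in NC and at 61.5, 61.2 and 61.0 FPKM in siPSCA. The libraries did not overlap, yet the difference of 0.10 ± 0.04 missed the threshold (adjusted p = 0.0886). CDK1, the mitotic kinase itself, was at 24.6, 27.3 and 29.6 FPKM in NC and at 27.5, 25.8 and 27.0 FPKM in siPSCA. These values overlapped, and the difference of -0.02 had a 95% interval from -0.20 to 0.16 on the log2 scale (adjusted p = 0.845). CCNA2, cyclin A2, and CCNB2, cyclin B2, differed by 0.01 and -0.04 and were not called.

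In the spindle checkpoint 1 of 5 members (20%) fell and none rose, beside 24.2% and 26.6% of all tested genes. TTK, the checkpoint kinase also named MPS1, was at 12.9, 13.4 and 17.1 FPKM in NC and at 10.0, 10.2 and 10.5 FPKM in siPSCA. The groups were apart with NC 3 the highest library (-0.45 ± 0.11, adjusted p = 0.0146), and the call was lost without siPSCA 1. BUB1, a checkpoint kinase at kinetochores, was at 16.9, 18.8 and 21.8 FPKM in NC and at 17.0, 15.2 and 17.8 FPKM in siPSCA, which overlapped (-0.18 ± 0.10, adjusted p = 0.184). BUB1B, BUB3 and MAD2L1, which together form the inhibitor of CDC20, differed by -0.13, 0.01 and -0.12, with adjusted p of 0.286, 0.902 and 0.0767.

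Kinetochore transcripts held the deepest falls. CENPE, a kinesin that moves chromosomes to the spindle equator (chr4:103105806-103198409), was at 4.71, 4.12 and 3.39 FPKM in NC and at 1.11, 1.29 and 1.61 FPKM in siPSCA. The highest siPSCA library lay under the lowest NC library, and the mean FPKM in siPSCA was 0.327 of that in NC (log2 fold change -1.12 ± 0.13, adjusted p = 0.00165). CENPF, a large kinetochore protein of G2 and mitosis (chr1:214603195-214664588), was at 21.0, 21.0 and 20.7 FPKM in NC and at 7.29, 10.4 and 10.6 FPKM in siPSCA. Its NC libraries had an SD of 0.157 FPKM, siPSCA 1 was the lowest, and the groups were far apart (-1.09 ± 0.13, adjusted p = 0.00187). Within the NDC80 complex, which binds microtubule ends, the 4 subunits differed in their values. NUF2 fell by 0.49 (adjusted p = 0.00219), SPC24 rose by 0.46 (adjusted p = 0.00248), and NDC80 (-0.22) and SPC25 (-0.08) were not called. CENPA, the histone variant of centromeres, was not called either (0.23, adjusted p = 0.111).

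Of 8 spindle kinesins and microtubule-binding proteins 4 (50%) fell and none rose, beside 24.2% and 26.6% of all tested genes. ASPM, a spindle pole protein known from microcephaly, was at 8.47, 7.64 and 7.49 FPKM in NC and at 3.44, 4.49 and 4.67 FPKM in siPSCA. The groups were apart, with siPSCA 1 the lowest (-0.78 ± 0.11, adjusted p = 0.00263). HMMR, a spindle assembly factor and hyaluronan receptor, was at 14.3, 16.6 and 19.0 FPKM in NC and at 11.6, 11.0 and 12.6 FPKM in siPSCA. Its groups did not overlap (-0.46 ± 0.11, adjusted p = 0.014), but the call was lost without siPSCA 1 or without siPSCA 2. DLGAP5, a spindle-stabilizing protein, fell by 0.39, and KIF11, the kinesin that pushes the poles apart, fell by 0.29, a call lost without NC 2 or any single siPSCA library. KIF2C, KIF4A, TPX2 and NUSAP1 differed by -0.01, -0.19, -0.16 and 0.14 and were not called.

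Cytokinesis transcripts fell in 3 of the 5 tested members (60%), beside 24.2% of all tested genes. KIF23, the kinesin of the centralspindlin complex, was at 15.8, 17.5 and 18.7 FPKM in NC and at 10.7, 10.6 and 11.9 FPKM in siPSCA (-0.60 ± 0.08, adjusted p = 0.00218). ANLN, anillin of the cleavage furrow, was at 27.2, 28.6 and 32.5 FPKM in NC and at 21.4, 22.5 and 23.1 FPKM in siPSCA (-0.38 ± 0.08, adjusted p = 0.0085). Neither overlapped between groups. ECT2, the exchange factor that activates RhoA at the furrow, fell by 0.29, while RACGAP1, the partner of KIF23, and the kinesin KIF20A differed by -0.12 and -0.05 without a call. PRC1, which bundles the central spindle, was the 1 untested member, at 0.237, 0.27 and 0.231 FPKM in NC and 0.407, 0.428 and 0.268 FPKM in siPSCA. In the annotation PRC1 shares 57.57% of its exonic bases with a gene on the same strand, AC068831.7, so its level is uncertain.

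Genes of chromosome structure fell most often among the role groups, with 5 of 6 (83.3%) lower and none higher, beside 24.2% and 26.6% of all tested genes. SMC4 and SMC2, the paired ATPases of condensin that compact mitotic chromosomes, were both lower. SMC4 was at 17.6, 17.9 and 19.7 FPKM in NC and at 9.37, 11.6 and 11.9 FPKM in siPSCA (-0.71 ± 0.10, adjusted p = 0.00265). In the annotation SMC4 shares 18.46% of its exonic bases with TRIM59 and 7.18% with IFT80, both on the opposite strand. SMC2 was at 7.74, 8.11 and 9.72 FPKM in NC and at 4.88, 5.44 and 5.64 FPKM in siPSCA (-0.59 ± 0.09, adjusted p = 0.00428). No library of SMC4 or SMC2 overlapped with the other group. TOP2A, the topoisomerase that untangles sister chromatids, fell by 0.45 (adjusted p = 0.00146). MKI67, the coat of mitotic chromosomes used as a marker of dividing cells, was at 41.4, 42.7 and 50.5 FPKM in NC and at 31.5, 35.4 and 37.4 FPKM in siPSCA. The groups were apart (-0.36 ± 0.10, adjusted p = 0.025), with the call lost without siPSCA 1 or without siPSCA 2. The call of MKI67 was also lost when no minimum FPKM was set (adjusted p = 0.0627). NCAPG, a condensin subunit, fell by 0.23 near the threshold (adjusted p = 0.0465), a call lost without NC 2 or any single siPSCA library, and 33.14% of its exonic bases are shared with LCORL on the opposite strand. NCAPH, a further condensin subunit, was not called (0.02).

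**Figure D2:**
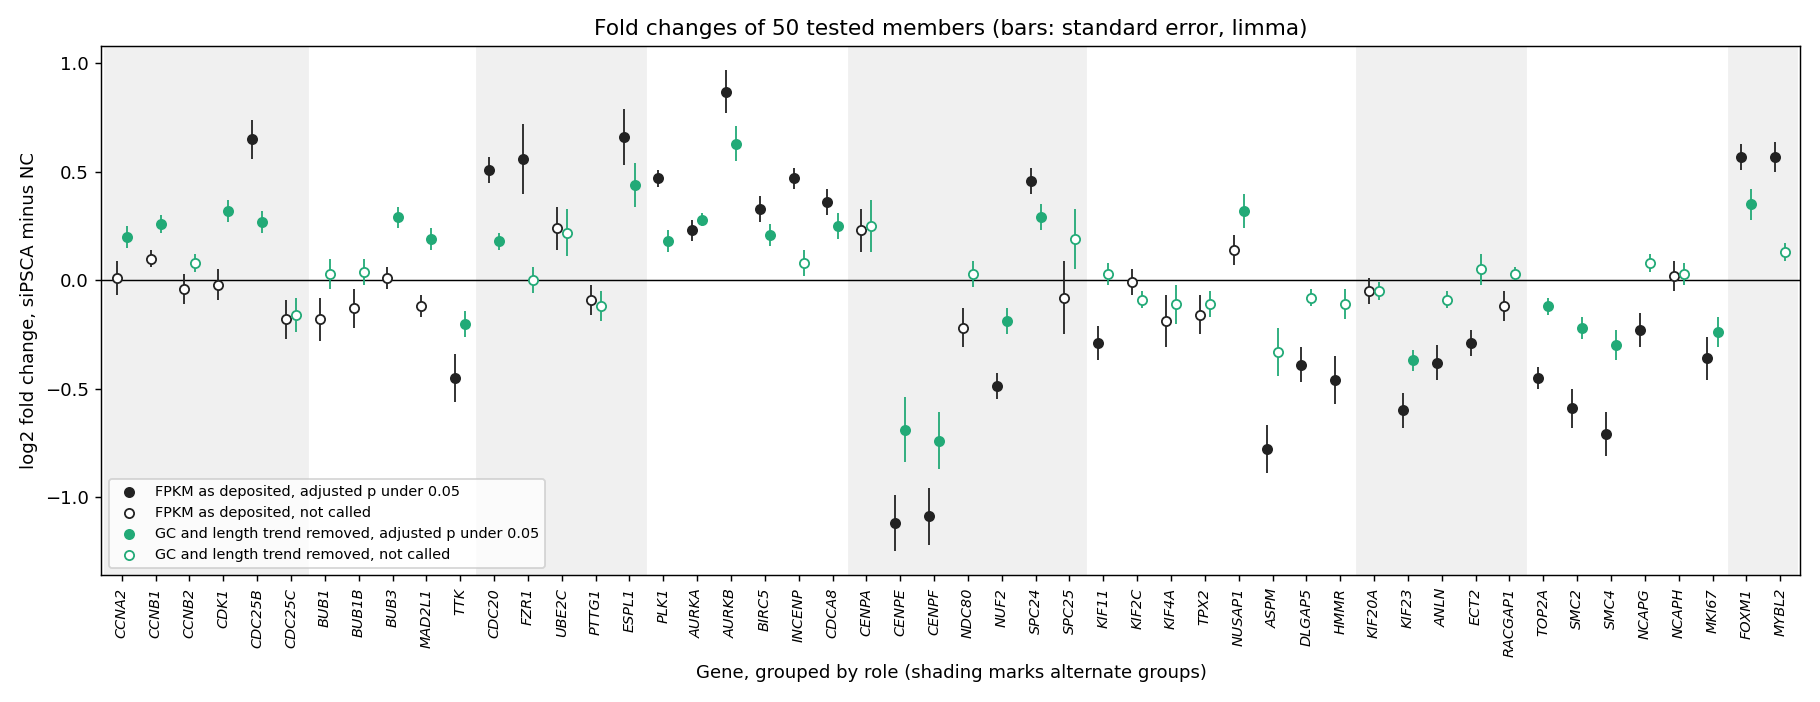
Log2 fold change (siPSCA minus NC) of the 50 tested genes by role, with standard errors from limma, on the deposited FPKM (black) and with the trend on GC content and length removed (green). Filled points were called. On the deposited values the group of mitotic kinases lies above 0 and 5 of 6 genes of chromosome structure are called below 0, and with the trend removed the values lie closer to 0 for AURKB and CENPE but keep their side.

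Most members that rose were rich in GC, and members that fell were poorer in it. GC content was that of the longest transcript in GENCODE 29, and its median was 57.0% in members called higher, 38.6% in members called lower and 48.1% in all tested genes. Of the 13 members over 50% GC, 12 were higher, none was lower and KIF2C was not called. Of the 37 tested members at 50% GC or less, AURKA alone was higher and 16 were lower. The shares of all tested genes called on either side of 50% GC were not counted, so these counts do not set the members apart from other genes of like GC content. Across the 50 genes the log2 fold change had a Spearman correlation of 0.83 with GC content and -0.51 with gene length, against 0.66 and -0.09 over all tested genes. These are correlations across genes that share the same libraries, and genes are not independent replicates. Members called lower had a median gene length of 6224 bases and those called higher 3815. By role, median GC was 58.0% in transcription factors, 57.0% in APC/C and separase, 53.9% in mitotic kinases and 43.8% in the entry engine. It was 42.3% in cytokinesis, 41.4% in the checkpoint, 40.5% in spindle kinesins, 40.1% in kinetochores and 39.0% in chromosome structure. Within the control group, the log2 level in NC 3 relative to the average of the other two controls correlated with GC at -0.47 over the members and -0.56 over all genes, so libraries of the same group also differed along GC content. The log2 level in siPSCA 3 relative to siPSCA 1 and to siPSCA 2 correlated with GC at -0.381 and -0.305 over all genes. Without NC 3 the correlation of the fold change with GC was 0.81 over the members and 0.61 over all genes.

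**Figure D3:**
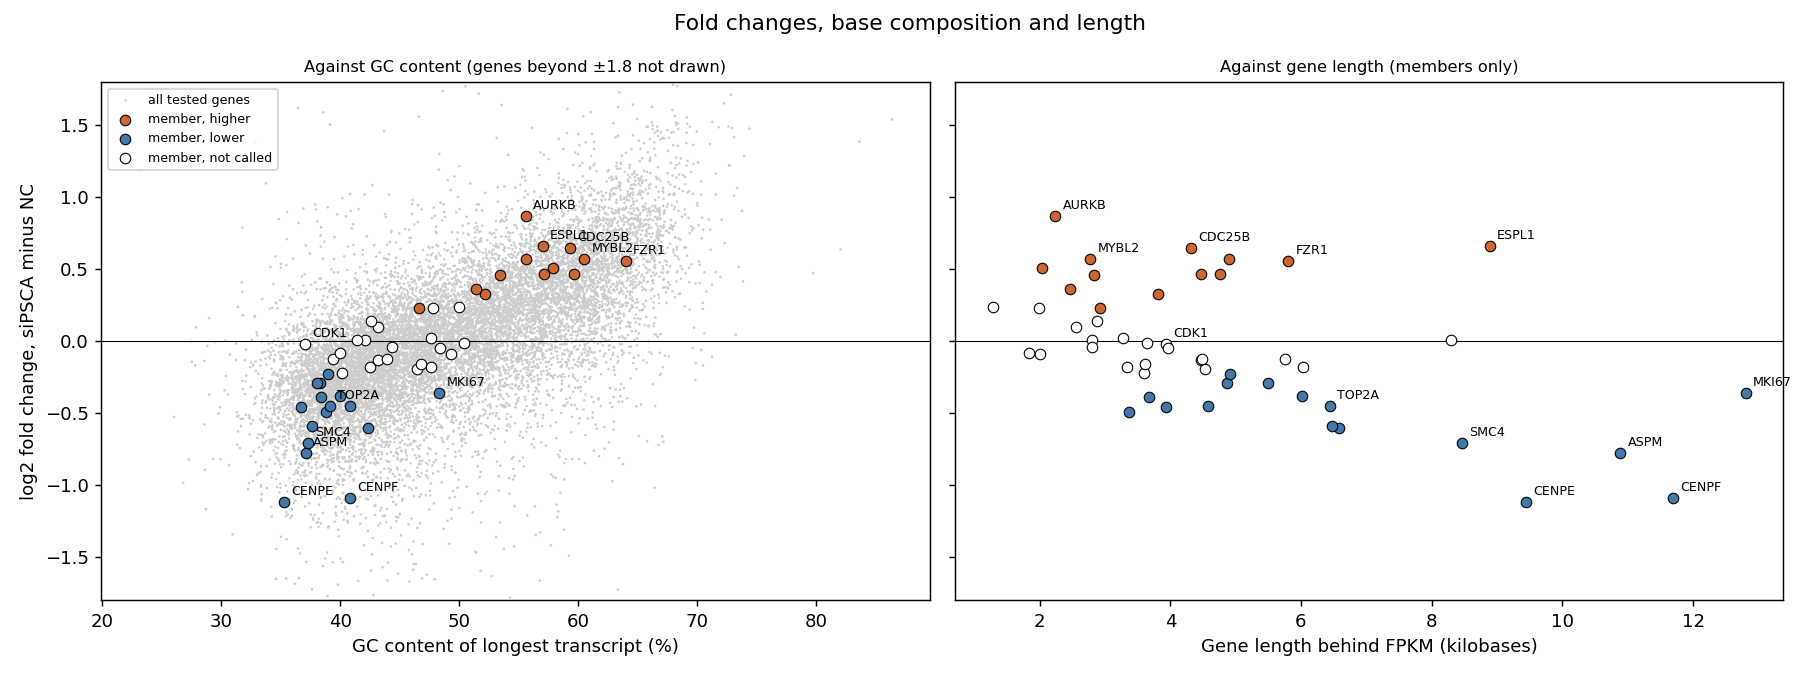
Log2 fold change (siPSCA minus NC) against GC content in percent (left, with all tested genes in grey) and against gene length in kilobases (right, members only). Orange members were called higher, blue lower and white not called. Members over 50% GC lie above 0 but for KIF2C, and CENPE, CENPF, ASPM and SMC4 are both long and low in GC.

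The fit was therefore repeated with a smooth trend on GC content and length, fitted over all genes, taken out of each library. This also takes out any change of the cells that runs along GC content, and the part of library preparation in the trend was not tested. Then 16 members were higher and 9 were lower, where 23.7% of all genes were higher and 16.6% lower, and the median was 0.04 for the members and 0.05 for all genes. These were 32% of the tested members higher and 18% lower, and the difference from the shares of all genes was not tested. The fold change of the members kept a correlation of 0.43 with GC and of -0.46 with gene length, against 0.01 and 0.01 over all tested genes.

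Some calls remained on both scales. Among these, the calls of AURKA, TTK and MKI67 on the deposited values were lost when a single siPSCA library was left out. AURKB (0.63, adjusted p = 0.00212), ESPL1 (0.44), FOXM1 (0.35), SPC24 (0.29), AURKA (0.28), CDC25B (0.27), CDCA8 (0.25), BIRC5 (0.21), CDC20 (0.18) and PLK1 (0.18) stayed higher on the log2 scale. CENPF (-0.74, adjusted p = 0.00606), CENPE (-0.69), KIF23 (-0.37), SMC4 (-0.30), MKI67 (-0.24), SMC2 (-0.22), TTK (-0.20), NUF2 (-0.19) and TOP2A (-0.12) stayed lower. The calls of INCENP (0.47 to 0.08), MYBL2 (0.57 to 0.13, adjusted p = 0.0519) and FZR1 (0.56 to 0.00) were lost among those higher. Among those lower, ASPM (-0.78 to -0.33, adjusted p = 0.0513), HMMR (-0.46 to -0.11), ANLN (-0.38 to -0.09) and DLGAP5 (-0.39 to -0.08) lost the call, and KIF11 (-0.29 to 0.03), ECT2 (-0.29 to 0.05) and NCAPG (-0.23 to 0.08) also changed sign.

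Cyclins and CDK1 took another place once the trend was removed. CDK1 went from -0.02 to 0.32 (adjusted p = 0.0039), CCNB1 from 0.10 to 0.26 (adjusted p = 0.00533) and CCNA2 from 0.01 to 0.20 (adjusted p = 0.0189), so 4 of 6 members of the entry engine were called higher and none lower. BUB3 (0.01 to 0.29), MAD2L1 (-0.12 to 0.19) and NUSAP1 (0.14 to 0.32) were likewise called higher, although NUSAP1 shares 62.16% of its exonic bases with AC087721.2 on the same strand. Among members not called on either scale, the estimate changed sign for BUB1 (-0.18 to 0.03), BUB1B (-0.13 to 0.04), CCNB2 (-0.04 to 0.08), NDC80 (-0.22 to 0.03), SPC25 (-0.08 to 0.19) and RACGAP1 (-0.12 to 0.03). Mitotic kinases kept 5 of 6 calls and chromosome structure 4 of 6 genes lower, whereas none of the 8 spindle kinesins and microtubule-binding proteins stayed lower. On this scale 23.7% of all genes were higher and 16.6% lower.

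In a wider list of 122 other mitotic genes, 37 of 120 tested genes (30.8%) were higher on the deposited values and 36 (30%) were lower, beside 26.6% and 24.2% of all tested genes, with a median log2 fold change of -0.02. With the trend removed 46 (38.3%) were higher and 13 (10.8%) lower, beside 23.7% and 16.6% of all genes, and the median was 0.13. The kinesins KIF20B (-1.15, adjusted p = 0.00134), a motor of cytokinesis, and KIF18A (-0.79, adjusted p = 0.00166), which dampens chromosome movement, fell the most, and both stayed lower with the trend removed (-0.78 and -0.43). SAPCD2, a regulator of spindle orientation, rose the most (1.38, adjusted p = 0.0119), from 12.7, 12.0 and 5.17 FPKM in NC to 28.2, 26.5 and 23.2 FPKM in siPSCA, followed by NCAPH2 of condensin II and CENPM of the kinetochore (0.84 each). With the trend removed these rises were 0.66 for SAPCD2, 0.34 for NCAPH2 and 0.38 for CENPM.

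Genes of the preceding phase were counted beside the mitotic genes. Of 51 genes of G1/S and DNA replication, 49 were tested, 28 (57.1%) were higher and 1 (2.04%) was lower, beside 26.6% and 24.2% of all tested genes, with a median of 0.25. With the trend removed 34 (69.4%) were higher and none was lower, beside 23.7% and 16.6% of all genes, with a median of 0.28. CDT1, which loads the replicative helicase, rose from 17.4, 18.0 and 13.6 FPKM in NC to 33.3, 33.5 and 32.1 FPKM in siPSCA (0.98, adjusted p = 0.00139), and CCND3, cyclin D3, rose by 0.92. The 1 fall was DBF4, the activator of the CDC7 kinase (-0.37, adjusted p = 0.0141), which was not called with the trend removed (-0.10). The difference in counts between the lists was not tested, and all the lists were chosen with earlier results of these data known.

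**Figure D4:**
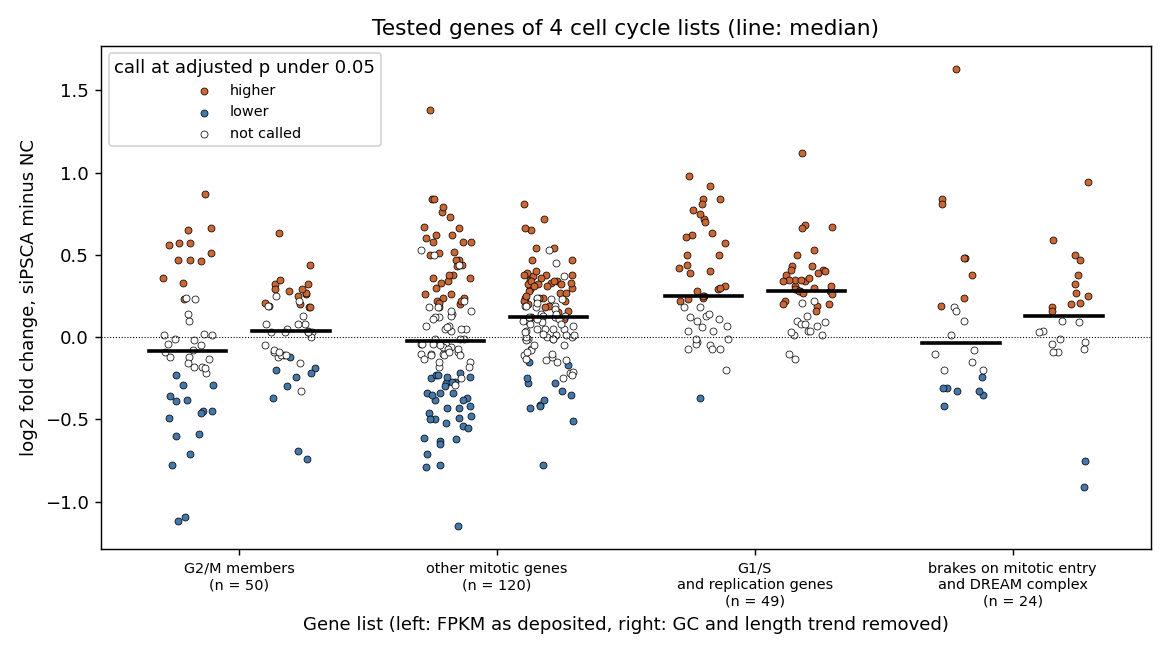
Log2 fold change (siPSCA minus NC) of the tested genes of 4 lists, on the deposited FPKM (left column of each list) and with the trend on GC content and length removed (right column), coloured by call, with a line at the median. G1/S and replication genes have medians of 0.25 and 0.28, and the G2/M members have medians of -0.08 and 0.04.

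Brakes on mitotic entry and components of DREAM were counted as a list of 26 genes, of which 24 were tested. On the deposited values 8 (33.3%) were higher and 7 (29.2%) lower, beside 26.6% and 24.2% of all tested genes, with a median of -0.03. With the trend removed 12 (50%) were higher and 2 (8.33%) lower, beside 23.7% and 16.6% of all genes, with a median of 0.13. PKMYT1, the membrane kinase that inhibits CDK1, was at 3.91, 3.56 and 1.13 FPKM in NC and at 11.2, 10.2 and 9.31 FPKM in siPSCA (1.63 ± 0.32, adjusted p = 0.0077). CDKN1A, the p21 inhibitor of cyclin-dependent kinases, was at 110.7, 109.7 and 78.0 FPKM in NC and at 181.8, 180.2 and 169.1 FPKM in siPSCA (0.84 ± 0.14, adjusted p = 0.00457). Neither overlapped between groups, NC 3 was the lowest library in both, and both stayed higher with the trend removed (0.94 and 0.50). The largest falls were those of the repressor E2F5 (-0.42, not called with the trend removed at -0.07) and of the stress gene GADD45B (-0.35, and -0.75 with the trend removed).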

How the data were processed

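RNA-seq of 3 NC and 3 siPSCA libraries (NEBNext Ultra RNA kit) was used, grouped by the sample labels. The titles of siPSCA 2 and siPSCA 3 disagree with their remaining labels on the number in the line's name, and both were kept as HCT116. The authors deposited FPKM per gene for 58735 genes, whose identifiers and positions are those of GENCODE 29 on GRCh38. The aligner, the counting program and its use of strand are not given in the sources used here. FPKM multiplied by gene length gave whole reads for 100% of values (tolerance 0.01), so the depth of each library was recovered, at 16803235 to 18218661 reads in total. In the annotation 21 members share exonic bases with another gene, 4 on the same strand.

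Log2(FPKM + 1) was fitted in R 4.3.3 with limma 3.58.1 (lmFit, eBayes with trend, two-sided) with group as the only term, for 13796 genes with a mean of at least 1 FPKM, and p-values were adjusted by Benjamini-Hochberg over all of them. The GC and length trend was estimated per library with mgcv 1.9.3 over 13792 genes. Tables and figures used Python 3.11.15, pandas 2.3.3, numpy 2.4.6, scipy 1.17.1 and matplotlib 3.10.9. The model was tested on simulated data over 13796 genes, with noise drawn independently for each gene. There 160 of 200 genes shifted by 1 on the log2 scale were recovered with 7 false calls, and 59 of 200 shifted by 0.5 with 1. The simulation held no deviation of a library along GC content, such as that of NC 3, so it does not cover false calls from that source.

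The members and lists were chosen with earlier results of these data known. Named with all libraries were MKI67, CCNB1, CDK1, PLK1, AURKA, AURKB, FOXM1, MYBL2 and the 2 tested members of each role with the largest absolute log2 fold change (INCENP and PLK1 tied). PRC1, as the untested member, and CDC20, chosen after its values were seen, were added. Members whose call or sign changed on removal of the GC trend were given both values, and other lists were named by their 2 largest rises and falls. Alternatives were another pseudocount, no minimum, TPM, median-of-ratios scaling, limma-voom on recovered reads, removal of the trend, each library left out, the replicate block and a second call rule. 1 gene of the list of brakes is not reported here by name.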

Additional observations from a re-analysis of the deposited data

How the results depend on the processing

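Among the counts of members called, those higher (13) and lower (16) stayed within 1.5 times under a pseudocount of 0.1, no minimum, TPM, median-of-ratios scaling and limma-voom. With no minimum 4 members lost their call, namely FZR1, KIF11, NCAPG and MKI67 (adjusted p of 0.0707, 0.0614, 0.0961 and 0.0627 by limma). Leaving out each library in turn gave 11 to 15 higher and 11 to 17 lower, and 25 to 46 higher and 24 to 36 lower for the other mitotic genes, 22 to 31 higher and 1 lower for G1/S and replication genes, and medians of the members from -0.114 to -0.018, the last without NC 3. With the trend on GC content and length removed, lower calls were 9 for members, 13 for other mitotic genes and 0 for G1/S genes, and the median was 0.038. A fit of that kind without NC 3, chosen after seeing the data, gave 9, 14 and 0, with 56 other mitotic genes higher and a median of 0.065. The second call rule gave 7 members, 18 other mitotic and 13 G1/S genes higher, and 6, 13 and 0 lower. Single genes that changed sign where a call was made on either side, with the trend removed, were CDK1 (0.32, and 0.33 without NC 3), MAD2L1 (0.19, and 0.15 without NC 3), KIF11 (0.03 and 0.06), ECT2 (0.05) and NCAPG (0.08 and 0.10), and FZR1 reached -0.04 without NC 3. The cause was not tested. Shares of all tested genes called were counted only for the main fit, the fit with the trend removed and the second call rule. The counts from the other alternatives therefore do not set the members apart from all genes.

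Replicate numbers do not mark a shared source in the labels, and deviations of same-numbered libraries correlated at 0.0955, 0.0132 and 0.134. Libraries of unlike number correlated at -0.131 to 0.0417. The same-numbered library was thus the nearest for NC 1 and NC 3, but not for NC 2. As the labels give no pairing, the main fit did not use the numbers as pairs. With the replicate block 14 members were higher and 17 lower. The shares of all genes called in fits with this block were not counted. With the replicate block and the trend removed 11 were higher and 6 lower, other mitotic genes had 10 lower and G1/S genes 0, the median was 0.038, and CDK1 (0.32), KIF11 (0.03), ECT2 (0.05) and NCAPG (0.08) changed sign.

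With 3 libraries a group, most shifts of 0.5 on the log2 scale were missed in simulation. That simulation shifted 200 of 13796 genes, whereas 7001 were called in the data, so its recovery does not give the power of this comparison. The absence of a call does not show that a gene kept its level. Intervals reflect the spread between libraries.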

Other observations

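Further genes of the list of brakes and DREAM components, counted but not named in the report, had the following values. SFN (14-3-3 sigma), which holds CDK1 in the cytoplasm, was at 119.2, 123.4 and 104.8 FPKM in NC and at 219.0, 205.9 and 184.4 FPKM in siPSCA, a log2 fold change of 0.81 (adjusted p = 0.0015 by limma) that was 0.32 with the trend on GC content removed. GADD45A, a stress gene that inhibits CDK1, rose by 0.48 (0.38 with the trend removed) and CDKN1B, the p27 inhibitor, by 0.24 (0.25). WEE1, the nuclear kinase that inhibits CDK1, was at 9.2, 9.63 and 9.58 FPKM in NC and at 10.9 FPKM in every siPSCA library, and its change of 0.19 was 0.59 with the trend removed. These genes, and those that follow, were chosen after their values were seen.

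Of the MuvB core, LIN54, which binds the CHR, fell by 0.31 and LIN9 by 0.24, and neither was called with the trend removed (0.03 and -0.01). LIN52 (-0.20) was not called, and LIN37 lay under the minimum at 0.428 to 0.759 FPKM. RB1 and RBL2, pocket proteins of the same regulation, fell by 0.33 and 0.31 and were not called with the trend removed (0.04 and -0.09), while RBL1 was not called on the deposited values (0.18) and rose by 0.47 with the trend removed.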
